A study of Mus musculus with 8 samples.

Results

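The cytosolic ribosomal protein genes encode the proteins of the large (Rpl) and small (Rps) subunits of the ribosome outside mitochondria. They were chosen by symbol: Rpl or Rps, a number and at most the letter a, x or l with a further number, plus Rplp0, Rplp1, Rplp2 and Rpsa. This gave 87 of the 19805 gene symbols in the data, and all 87 were present in both count tables. The set holds 51 large and 36 small subunit genes. RefSeq lists 82 of them as protein-coding and 5 as pseudogenes: Rps4l, Rps3a2, Rps3a3, Rpl6l and Rps12l1. Rpl32l is coding in RefSeq and a processed pseudogene in GENCODE.

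The RNA came from primary wild-type mouse cells. Group 2 innate lymphoid cells (ILC2s, antigen-receptor-negative lymphocytes that make type 2 cytokines) were from lung, and CD8 T cells were from spleen. Co-cultured CD8 T cells and co-cultured ILC2s had been kept together at 5:1 for 3 days and separated by flow cytometry. The libraries labelled alone came from either cell type cultured by itself, untreated per the labels, and there were 2 libraries in each of the 4 groups. The labels do not say whether the 2 libraries of a group came from different mice or cultures, and p-values therefore cover only library-to-library spread, which could be technical.

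Ribosomal protein genes lie dispersed over the genome, and their products are assembled with ribosomal RNA in the nucleolus, nearly all in equal copy number. Their mRNAs belong to the TOP class, which begins with a C followed by an uninterrupted pyrimidine run at the very 5′ end. Through that run, the kinase mTORC1 and the cap-binding protein LARP1 adjust their translation and stability to nutrients and growth signals. Lymphocytes enlarge their ribosome pool when they are activated and grow, and shrink it when they return to rest.

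The promoters shown here are those of the members on which the results turn: the paralog pair Rps27 and Rps27l, the paralogs Rpl7l1 and Rpl22l1, Rpl38 as a strongly lowered TOP gene in CD8 T cells, and Rps6 as a standard TOP gene. Each run holds 30 bases before the start of a RefSeq promoter entry and 25 bases from it on (GRCm38.p6, written 5′ to 3′ on the gene's strand), and capitals mark a C followed by at least 5 further C or T that begins within 10 bases of the start. For Rps27l and Rpl38, this start lies inside the listed gene span, which begins at 66944624 and 114667818. Rps27l has 2 promoter entries, of which 1 is printed, and neither holds the pyrimidine run. The windows lie at chr3:90213624-90213678 on the minus strand for Rps27, chr9:66946056-66946110 on the plus strand for Rps27l, chr17:46782632-46782686 on the minus strand for Rpl7l1, chr3:28805478-28805532 on the plus strand for Rpl22l1, chr11:114668550-114668604 on the plus strand for Rpl38 and chr4:86857343-86857397 on the minus strand for Rps6.
Rps27: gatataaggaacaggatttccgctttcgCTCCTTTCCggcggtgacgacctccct
Rps27l: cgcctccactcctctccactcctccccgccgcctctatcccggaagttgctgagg
Rpl7l1: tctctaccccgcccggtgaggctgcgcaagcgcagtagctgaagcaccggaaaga
Rpl22l1: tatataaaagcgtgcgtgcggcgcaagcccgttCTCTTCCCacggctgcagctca
Rpl38: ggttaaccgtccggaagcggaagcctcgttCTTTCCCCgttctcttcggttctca
Rps6: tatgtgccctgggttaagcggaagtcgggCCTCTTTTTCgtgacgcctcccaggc
Rps27, Rpl22l1, Rpl38 and Rps6 have such a run, and Rps27l and Rpl7l1 have none that begins within 10 bases of the start. Among the 62 members with a RefSeq promoter entry, 32 (51.6%) had the run at the annotated start, against 20.4% of all 27025 genes with an entry. A gene with several entries counted if any of them held the sequence. The 300 bases around the start were searched on both strands for other sequences. CCGGAAGT (the core bound by ETS factors) stood in 12 of the 62 (19.4%, against 4.31% of all genes with an entry). TATAAA stood in 8 (12.9%, against 15.7%) and GGGCGG, the GC box, in 38 (61.3%, against 38.2%).

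Library totals ran from 48072595 to 67076905 counts. Levels are given as CPM, the counts of a gene scaled to a common library total (counts per 1e+06), and neither deposited table holds a count of 0. Each cell type's defining markers were present in its own libraries. In ILC2s, the summed level of the 13 ILC2 markers was 10558 to 10709 CPM in co-cultured and 4304 to 4309 CPM in libraries labelled alone. The summed markers of several other cell types were lower in the co-cultured ILC2 libraries than in those labelled alone: 432 to 518 against 2162 to 2281 CPM over the 14 CD8 T cell markers, 115 to 118 against 8148 to 8840 CPM over the 10 listed of 14 stroma markers, 17.0 to 21.1 against 313 to 319 CPM over the 5 listed of 13 macrophage markers, and 80.2 to 84.1 against 386 to 392 CPM over the 6 epithelial markers. The 4 CD4 T cell markers ran the other way, at 1688 to 1733 CPM co-cultured against 399 to 408 CPM alone, with Ctla4 higher (log2 change 2.38) and the other 3 lower, and single markers of the lower lists rose too (Zap70 by 1.82 and Lum by 0.91 on the log2 scale). The part of these cells in the ILC2 results was not tested, both ILC2 libraries labelled alone carried the markers, and counts scaled to the geometric mean of the ILC2 markers stand beside the main ones. The 13 ILC2 markers changed unevenly, by 0.15 to 2.62 on the log2 scale, with the cytokine genes Il13 (2.62) and Il5 (2.40) furthest. Scaling to them is therefore no plain measure of ILC2 content. In the CD8 table, 3 of 14 stroma markers were listed, at 2.51 to 2.74 CPM in co-cultured and 2.82 to 3.28 CPM in libraries labelled alone. Other lists in that table moved with co-culture, with 745 to 825 CPM co-cultured against 523 to 543 CPM alone over the 4 CD4 markers (Cd4 log2 change 3.02), 30.9 to 32.6 against 17.8 to 19.3 CPM over 5 of 13 macrophage markers and 33.6 to 34.2 against 17.2 to 17.99 CPM over 3 of 6 epithelial markers. Most single markers of the last 2 lists did not follow these sums. Of 4 macrophage markers tested, 2 fell (Lyz2 log2 change −4.43, Csf1r −2.75) and 1 rose. Of 3 epithelial markers, 2 fell (Krt18 −2.64, Cdh1 −1.67) and 1 rose. Itga2b, the platelet marker listed there, had 0.589 to 0.671 CPM co-cultured against 16.99 to 17.03 CPM alone, and the part of these markers in the CD8 results was not tested.

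The members together held a smaller share of the RNA in co-cultured than in separately cultured CD8 T cells. They took 2.08% and 2.05% of counts in the co-cultured CD8 libraries and 2.93% and 2.81% in those labelled alone, a difference of group means of −0.814 percentage points. The groups did not overlap. In ILC2s, the share was 1.51% and 1.80% in the co-cultured and 1.41% and 1.33% in the libraries labelled alone, also without overlap, and the difference of 0.282 points was close to the SD of 0.212 points between the co-cultured libraries; it was 0.132 points without co-cultured replicate 2 and 0.432 points without co-cultured replicate 1. In bulk RNA, fewer cells of a type and less of an mRNA per cell cannot be told apart.

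Both subunits held a smaller share with co-culture in CD8 T cells, and in ILC2s the groups lay apart for the large subunit only. Large subunit genes held 1.37% ± 0.018 of counts in co-cultured CD8 T cells and 1.83% ± 0.043 in those alone, and small subunit genes 0.694% ± 0.0035 and 1.04% ± 0.041 (SD, n = 2 each). In ILC2s, the values were 1.14% ± 0.13 co-cultured and 0.904% ± 0.057 alone for the large subunit, and 0.519% ± 0.081 co-cultured and 0.469% ± 0.0025 alone for the small one. Small subunit genes overlapped between the ILC2 groups, at 0.461% and 0.576% against 0.467% and 0.470%. The ratio of large to small subunit counts was 1.98 and 1.96 in co-cultured CD8 T cells against 1.75 and 1.79 in those alone, and 2.26 and 2.13 in co-cultured ILC2s against 2.02 and 1.84 in those alone. The 5 most abundant members made up 34.0% and 35.4% of all member counts in co-cultured CD8 T cells and 29.0% and 29.8% in those alone, and 35.1% and 33.0% in co-cultured ILC2s and 29.1% and 28.1% in those alone.

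**Figure D1:**
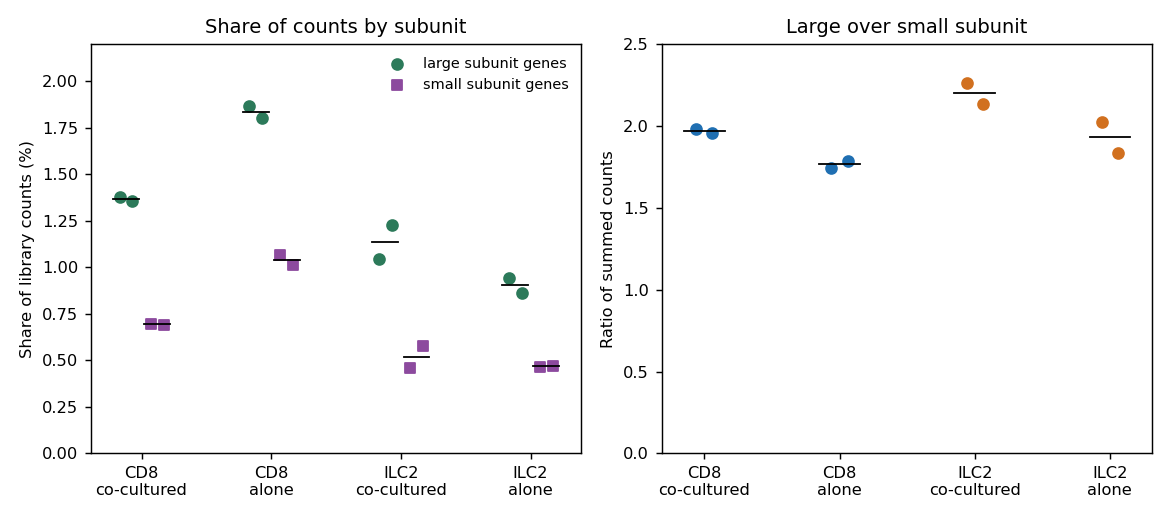
Left, share of each library's counts (%) on large (circles) and small (squares) subunit genes; right, ratio of large to small subunit counts. Each point is a library and each line the mean of 2. Both shares were lower in co-cultured CD8 T cells than in CD8 T cells alone, and the ratio was higher in the co-cultured libraries of both cell types.

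The mRNA levels of the members spanned a wide range. Averaged over all 8 libraries, the 81 members with a coding length ran from 1.27 CPM per kb of coding sequence (Rpl39l) to 1810 (Rpl41), with a median of 289 and quartiles of 195 and 496. After Rpl41, which encodes a peptide of very few residues, the large subunit levels were highest for Rpl13 at 1530 and Rpl4 at 1411 CPM per coding kb. The small subunit was led by Rpsa at 812, Rps3a1 at 794 and Rps2 at 793 CPM per coding kb. Per kb of whole transcript, the median was 169 CPM and the highest level was that of Rpl13, at 1247 CPM, while Rpl41 stood at 243 CPM.

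In CD8 T cells, 82 of the 87 members fell with co-culture and none rose, against 30.7% of 15948 genes tested that fell and 30.2% that rose, 60.9% in all (edgeR quasi-likelihood test, Benjamini-Hochberg adjusted p under 0.05 over all genes). The median log2 change, co-cultured over alone and scaled by TMM factors, was −0.72 over the members, −0.67 over the large and −0.77 over the small subunit genes, and −0.0051 over all genes. No member rose at an unadjusted p under 0.05, or with DESeq2 or limma-voom. In CPM, 85 members were lower in both co-cultured libraries than in both labelled alone and none was higher in both, against 36.4% and 41.5% of all genes in the table. Scaled to the 14 CD8 T cell markers, 84 fell and none rose.

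Of the members with a mean of at least 16 CPM, Rps27l, Rpl38, Rps21, Rpl27 and Rpl35a were among those that fell furthest. Rps27l, a small subunit paralog that p53 induces, had 33.9 and 29.95 CPM in co-cultured CD8 T cells against 113 and 97.5 CPM in those alone (log2 change −1.80 with SE 0.092, edgeR adjusted p = 9.5e-09). Rpl38, which in mouse embryos is needed for translation of Hox mRNAs, had 26.1 and 20.4 CPM co-cultured against 57.7 and 58.4 CPM alone (−1.40, SE 0.11, edgeR adjusted p = 2.1e-07). The groups were far apart in both. Rpl27, a large subunit protein, had 99.3 and 87.3 CPM co-cultured against 225 and 213 CPM alone (−1.31, SE 0.078). Rps21 (−1.33, SE 0.15) and Rpl35a (−1.26, SE 0.10), whose human gene is one of those mutated in Diamond-Blackfan anaemia, fell by a similar amount, and in each the groups did not overlap.

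The 6 members least lowered at a mean of at least 16 CPM were large subunit genes. Rpl3, whose protein reaches towards the peptidyl transferase centre, had 1900.2 and 1878 CPM in co-cultured CD8 T cells against 1894 and 1960.0 CPM in those alone. Its groups overlapped, and the log2 change was −0.11 (SE 0.067, edgeR adjusted p = 0.18). Rpl4, which lines the exit tunnel, had 1997 and 2149 CPM co-cultured against 2280.1 and 2278 CPM alone (−0.22, SE 0.070), and Rpl13 had 1073 and 1078 against 1202 and 1183 CPM (−0.23, SE 0.066). Both calls were lost in 4 of 13 alternative analyses, with edgeR adjusted p up to 0.20 for Rpl4 and 0.093 for Rpl13. These included leaving out co-cultured CD8 replicate 1 for both (adjusted p = 0.20 for Rpl4 and 0.077 for Rpl13 in edgeR) and replicate 2 for Rpl13 (0.070). Rpl10a (−0.35) and Rpl13a (−0.37), which in human cells also joins an interferon-gamma-activated inhibitor of translation, fell by less than the median member; leaving out co-cultured CD8 replicate 2 ended the call of Rpl13a (edgeR adjusted p = 0.056). The other 4 members not past the threshold, Rpl39l, Rpl32l, Rps3a3 and Rps12l1, lay at 0.104 to 1.72 CPM in all 4 CD8 libraries.

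The fall in CD8 T cells was graded by coding length. The 27 members with coding sequences of 78 to 399 bases had a median log2 change of −1.001, the 27 of 402 to 567 bases −0.82 and the 27 of 579 to 1260 bases −0.59. Other protein-coding genes of the same lengths were graded too, at medians of −0.66 (620 genes), −0.45 (775 genes) and −0.14 (4135 genes), and at each length the members lay below them. Across the 81 members, the Spearman correlation of the change with coding length was 0.49 and with the level per transcript kb 0.53, against 0.04 with GC content. The members share libraries and depth. Library composition moved with this grading: the shortest class made up 8.10% and 6.88% of member counts in co-cultured CD8 T cells against 9.43% and 9.42% in those alone, with 1681 and 1408 summed CPM in co-cultured replicates 1 and 2. Over the members of the shortest and longest class, the median log2 ratio of co-cultured replicate 2 to replicate 1 was −0.18 and 0.04. The part of library preparation in the grading was not tested. For Rpl41, with 173 and 109 CPM co-cultured against 198 and 189 CPM alone, the log2 change of −0.54 (SE 0.15) missed the threshold without replicate 2 (edgeR adjusted p = 0.062) and with DESeq2 (adjusted p = 0.17).

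In ILC2s, the members split: 40 of 85 tested rose with co-culture, 9 fell and 36 did not pass, and this direction turned when libraries were scaled to the 13 ILC2 markers (none rose, also at an unadjusted p, and 81 fell, but so did 79.1% of all genes, with 3.17% higher). Of all 16739 genes tested, 31.8% rose and 34.4% fell, 66.3% in all, so the share of members that rose was above that of all genes and the share that fell below it. The median log2 change was 0.31 over the members (0.32 large, 0.29 small), −0.010 over all genes, and −1.19 over the members and −1.51 over all genes when scaled to the ILC2 markers. Relative to all genes, the members lay above the median in both scalings, but a change of scaling moves all genes by nearly the same amount. The second scaling could therefore not alter this. With library totals alone the median of all genes was −0.22, and 27 members rose and 15 fell, beside 25.5% and 41.1% of all genes. In CPM, 35 members were higher and 23 lower in both co-cultured libraries than in both labelled alone (34.2% and 46.4% of all genes), and 29 overlapped.

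Among the members that rose most in ILC2s by this test were Rps27, Rplp1, Rpl36, Rpl22 and Rpl37a. Rps27, a zinc-binding small subunit protein, had 78.1 and 107 CPM in co-cultured ILC2s against 35.97 and 42.4 CPM in those alone (log2 change 1.45 with SE 0.15, edgeR adjusted p = 6.7e-06). Rplp1, of the lateral stalk that recruits elongation factors, had 283 and 394 CPM co-cultured against 160.0 and 186 CPM alone (1.17, SE 0.15). In both genes, both co-cultured libraries exceeded both labelled alone, and co-cultured replicate 2 was the higher one. Rpl36 (1.12, SE 0.13), Rpl22 (1.02, SE 0.14), which mouse alpha-beta T cells need for their development, and Rpl37a (0.99, SE 0.14) also had groups that did not overlap.

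The 9 members that fell in ILC2s included the 3 paralogs Rpl7l1, Rps4l and Rps27l and the ordinary members Rpl5, Rpl31, Rpl27 and Rpl8. Rpl7l1, whose human protein sits on early precursors of the large subunit in the nucleolus, had 29.9 and 33.9 CPM in co-cultured ILC2s against 149 and 171 CPM in those alone (−2.12, SE 0.13, edgeR adjusted p = 8.3e-08). The groups lay far apart. Rpl31 (−0.44), Rpl27 (−0.40) and Rpl8 (−0.35) fell less, and the call of Rpl27 was lost without ILC2-alone replicate 2 or co-cultured replicate 1 (edgeR adjusted p = 0.13 in both). All 9 fell in CD8 T cells too. Of the 36 that did not pass, the most abundant were Rps3a1 (0.14, SE 0.12), Rps2 (0.17, SE 0.12) and Rpl6 (0.04, SE 0.12).

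**Figure D2:**
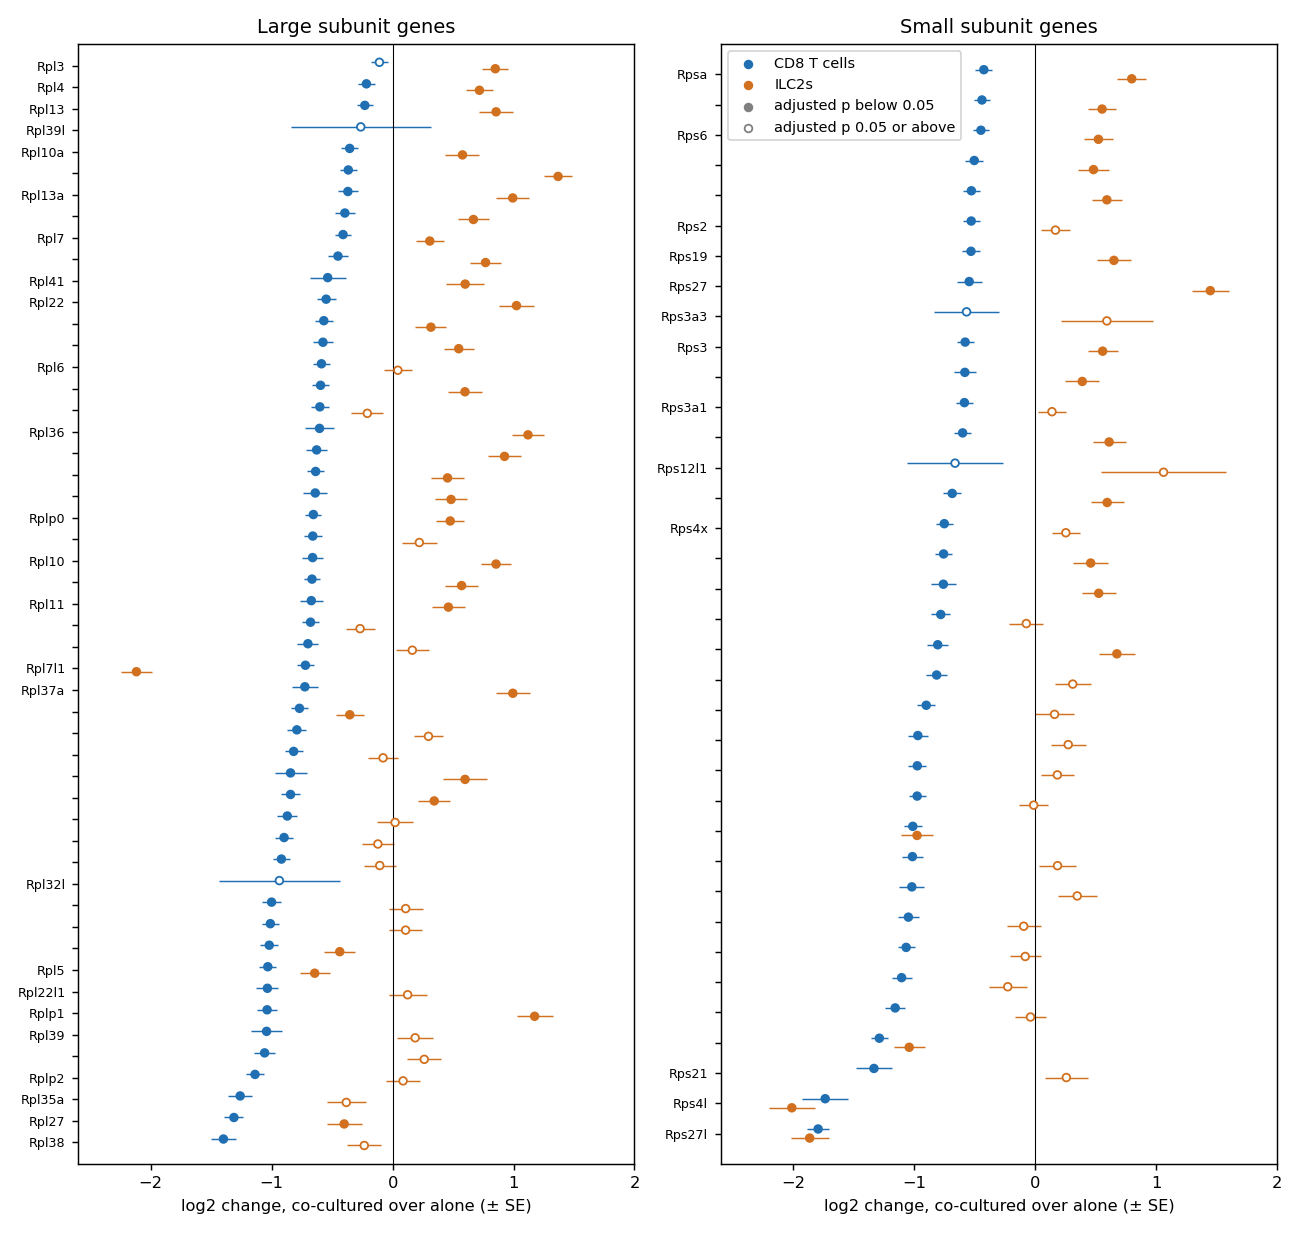
Log2 change (co-cultured over alone, x axis, ± SE) of each large (left) and small (right) subunit gene, ordered by the change in CD8 T cells (blue) with that in ILC2s in orange; filled points had an edgeR adjusted p below 0.05 and names stand beside most members that the text describes. The blue points lie left of 0 throughout, while the orange ones run from −2.12 to 1.45 under TMM scaling and shift to a median of −1.19 when scaled to ILC2 markers.

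The change differed between the cell types for most members. In the interaction test over all 8 libraries, the log2 change in ILC2s minus that in CD8 T cells was above 0 for 75 of 87 members and below 0 for Rpl7l1 alone, with a median of 0.96; scaled to each cell type's own markers, 3 were above and 34 below, beside 3.23% and 74.2% of all genes, and the median was −0.23. Of all 15532 genes in this test, 21.0% were above and 32.6% below, 53.6% in all, with a median of −0.12 (−1.32 scaled to own markers). Members with the lowest p included Rplp1 (2.05, SE 0.18, edgeR adjusted p = 1.2e-07), Rps27 (1.83, SE 0.20, adjusted p = 1.5e-06), Rpl22 (1.42, SE 0.17), Rpl10 (1.36, SE 0.16), a large subunit protein that joins late, and, below 0, Rpl7l1 (−1.56, SE 0.14, adjusted p = 1.9e-07). Rpl10 had 316 and 375 CPM in co-cultured CD8 T cells against 531 and 504 CPM in those alone, and 384 and 479 CPM in co-cultured ILC2s against 264 and 287 CPM in those alone. Of the 85 members tested in both cell types, 39 fell in CD8 T cells and rose in ILC2s, 9 fell in both, 34 fell in CD8 T cells and did not pass in ILC2s, and Rpl3 rose in ILC2s and did not pass in CD8 T cells.

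The order of the members was nonetheless alike in both cell types. Across 80 coding members, the Spearman correlation of both log2 changes was 0.68 (Pearson 0.63), over genes that share libraries within each cell type but no libraries between them. The co-cultured cells of both types had been kept together, however. The ILC2 libraries labelled alone also held 2162 to 2281 CPM of CD8 T cell markers. The part of either in this likeness was not tested. Rps27l, Rpl27, Rpl38 and Rpl35a stood low in both, and Rpl3 and Rpl13 stood high in both. For Rps27l (−0.23, SE 0.19) and Rpl5 (0.23, SE 0.14) the difference between the cell types did not pass the test, with edgeR adjusted p of 0.32 and 0.17 (for Rpl5 it passed in 3 of 16 alternatives, at 0.032 with DESeq2, 0.044 with RLE scaling and 0.049 without ILC2-alone replicate 1). Scaled to the summed count of the members, 39 fell and 5 rose in CD8 T cells, beside 11.7% and 57.1% of all genes. In ILC2s, 23 fell and 8 rose, beside 47.5% and 17.0% of all genes. This scaling holds the members' total equal between libraries, so these counts describe only their spread around it. The ILC2 changes followed coding length more loosely than the CD8 ones, at a Spearman correlation of 0.11 with length and 0.39 with the level per transcript kb (n = 80), and the 3 length classes had medians of 0.17, 0.27 and 0.48. Other protein-coding genes of the same lengths had ILC2 medians of −0.52 (652 genes), −0.49 (835 genes) and −0.26 (4327 genes). Members with the pyrimidine run had a median of −0.68 in CD8 T cells and 0.26 in ILC2s (n = 32), and those without it −0.71 and 0.31 (n = 30).

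**Figure D3:**
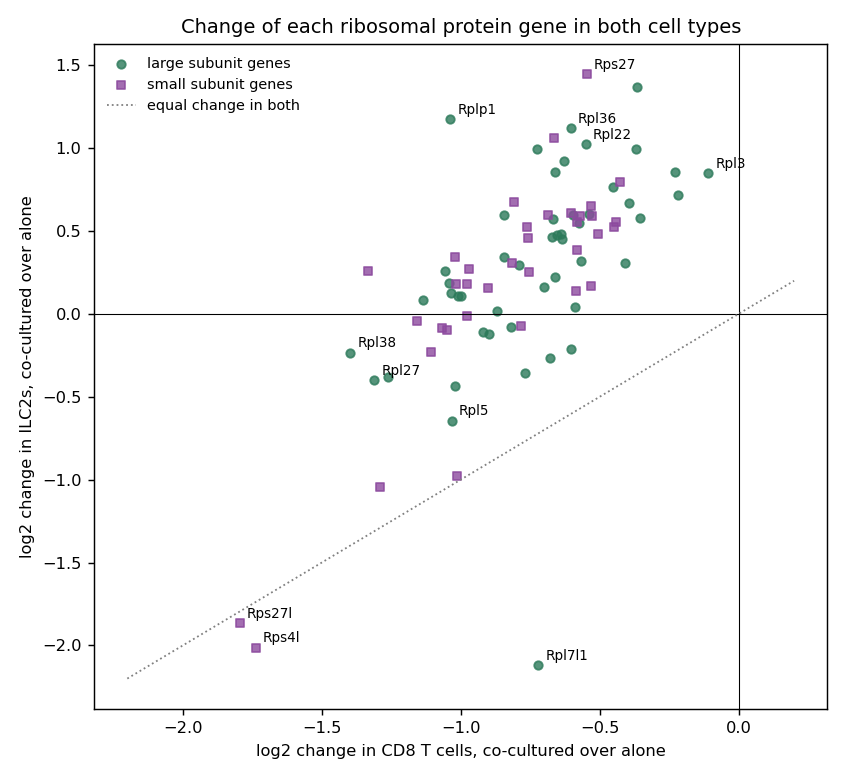
Log2 change in CD8 T cells (x axis) and in ILC2s (y axis), co-cultured over alone with TMM scaling, for each of 85 large (circles) and small (squares) subunit genes; the dotted line marks equal change. Most members lie above the line, with Rpl7l1 far below it. Scaled to each cell type's own markers, 34 members differ downwards and 3 upwards, beside 74.2% and 3.23% of all genes.

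Among the lateral stalk genes, the ratio of Rplp1 to Rplp2 lay apart between the ILC2 groups and overlapped between the CD8 T cell groups. Rplp0, the base of the stalk, had 1304 and 1293 CPM in co-cultured CD8 T cells against 1986 and 1883 CPM in those alone (−0.66, SE 0.067), and 955 and 1146 CPM in co-cultured ILC2s against 859 and 888 CPM in those alone (0.48, SE 0.11). Rplp1 and Rplp2 bind it as dimers. In CD8 T cells both fell, Rplp1 to 88.7 and 80.4 CPM against 173 and 155 CPM alone (−1.04, SE 0.079) and Rplp2 to 77.5 and 81.2 CPM against 173 and 158 CPM alone (−1.14, SE 0.075). In ILC2s, Rplp2 had 55.8 and 71.6 CPM co-cultured against 63.2 and 75.5 CPM alone, with overlapping groups (0.09, SE 0.14, edgeR adjusted p = 0.61), while Rplp1 rose. Rplp1 stood at 506% and 550.3% of Rplp2 in co-cultured ILC2s against 253% and 246% in those alone, and at 114% and 99.0% in co-cultured CD8 T cells against 100.4% and 98.3% in those alone. This ratio within a library does not depend on the scaling.

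Rpl5 and Rpl11, which with 5S ribosomal RNA form a particle that also binds Mdm2 and so stabilises p53, did not move together in ILC2s. Rpl5 had 192 and 215 CPM in co-cultured ILC2s against 403 and 335 CPM in those alone (−0.64, SE 0.12, edgeR adjusted p = 0.00072), and Rpl11 had 86.7 and 112 CPM against 89.2 and 77.5 CPM (0.46, SE 0.14, adjusted p = 0.010), with overlapping groups. The call of Rpl11 was lost in 3 of 13 alternatives, among them without ILC2-alone replicate 2 (edgeR adjusted p = 0.077) and without co-cultured ILC2 replicate 2 (0.064). In CD8 T cells, Rpl5 had 383 and 391 CPM co-cultured against 781 and 717 CPM alone (−1.03, SE 0.070) and Rpl11 135 and 107 CPM against 185 and 180.4 CPM (−0.67, SE 0.095). Both CD8 groups lay apart.

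Rps6, Rpsa, Rps3 and Rps19 were among the members that fell in CD8 T cells and rose in ILC2s, the second direction turning when scaled to ILC2 markers. Rps6, the substrate of the S6 kinases, had 540.3 and 557 CPM in co-cultured CD8 T cells against 714 and 705 CPM in those alone (−0.45, SE 0.067), and 386 and 470.2 CPM in co-cultured ILC2s against 365 and 326 CPM in those alone (0.52, SE 0.12). Rpsa, which is also known as a laminin receptor, fell in CD8 T cells (−0.43, SE 0.071) and rose in ILC2s (0.80, SE 0.12), where it had 615 and 735 CPM co-cultured against 430.0 and 469 CPM alone. Rps3, at the mRNA entry channel, gave −0.58 in CD8 T cells and 0.56 in ILC2s. Rps19, the most often mutated gene in human Diamond-Blackfan anaemia, gave −0.53 in CD8 T cells and 0.65 in ILC2s. All 8 changes passed the test.

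Several paralogs parted from their partners. Rps27l (mm10 chr9:66944624-66949522, 4 exons), which like Rps27 (chr3:90212667-90213648, 4 exons) has a coding sequence of 255 bases, stood at 58.5% and 66.9% of Rps27 in co-cultured CD8 T cells against 157% and 138% in those alone, and at 16.2% and 14.8% in co-cultured ILC2s against 148% and 157% in those alone. By CPM, the higher of the pair was thus Rps27 in all 4 co-cultured libraries and Rps27l in all 4 labelled alone. Their transcripts differ in length, at 345 bases for Rps27 and 499 for Rps27l. Per kb of transcript, the means of Rps27 and Rps27l alone were close, at 206 and 210 CPM in CD8 T cells and 114 and 120 CPM in ILC2s. Co-cultured, they were 149 and 64.0 CPM in CD8 T cells and 268 and 28.5 CPM in ILC2s. In ILC2s, Rps27l fell to 12.6 and 15.9 CPM against 53.3 and 66.7 CPM alone (−1.87, SE 0.16, edgeR adjusted p = 1e-06). Of the promoters printed above, that of Rps27 holds the pyrimidine run and that of Rps27l does not. Rps27 shares sequence with Rps27rt, a near-identical copy, so its values are uncertain to the extent that reads were split between them; Rps27rt had 3.66 and 2.79 CPM in co-cultured CD8 T cells against 4.86 and 5.01 CPM in those alone, and 4.89 and 6.72 CPM in co-cultured ILC2s against 1.75 and 2.58 CPM in those alone.

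Rpl7l1 (chr17:46773907-46782656, 7 exons) fell in both cell types, and its ratio to Rpl7 was lower in every co-cultured library than in those labelled alone. It stood at 19.0% and 17.8% of Rpl7 in co-cultured CD8 T cells against 22.98% and 22.6% in those alone, and at 7.88% and 7.62% in co-cultured ILC2s against 37.1% and 46.4% in those alone. Rpl7 itself had 379 and 445 CPM in co-cultured ILC2s against 402 and 369 CPM in those alone, with overlapping groups (0.31, SE 0.12, edgeR adjusted p = 0.035), and −0.41 (SE 0.068) in CD8 T cells. The ILC2 call of Rpl7 was lost in 5 of 13 alternatives, among them without ILC2-alone replicate 2 (edgeR adjusted p = 0.17) and without co-cultured ILC2 replicate 2 (0.15).

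Rpl22l1, the paralog of Rpl22, stood at 52.3% and 57.2% of it in co-cultured CD8 T cells against 79.4% and 73.7% in those alone, and at 26.5% and 28.8% in co-cultured ILC2s against 56.0% and 48.2% in those alone. In CD8 T cells it had 24.1 and 24.4 CPM co-cultured against 50.4 and 43.9 CPM alone (−1.04, SE 0.090), while Rpl22 had 46.1 and 42.7 CPM against 63.5 and 59.5 CPM (−0.55, SE 0.080). In ILC2s Rpl22 rose, as given above, and Rpl22l1 did not pass (0.12, SE 0.16, edgeR adjusted p = 0.50).

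Rps4l, listed as a transcribed pseudogene of the X-linked Rps4x, was low in CD8 T cells at 2.25 and 2.77 CPM co-cultured against 9.15 and 6.75 CPM alone (−1.74, SE 0.19). In ILC2s it had 4.99 and 7.88 CPM co-cultured against 32.3 and 27.8 CPM alone (−2.01, SE 0.19), which was 2.54% and 3.40% against 15.8% and 13.1% of Rps4x. Rps4x itself fell in CD8 T cells (−0.75, SE 0.070) and had 196 and 232 CPM in co-cultured ILC2s against 204 and 212 CPM in those alone (0.25, SE 0.12, edgeR adjusted p = 0.077). Rpl39l, known from male germ cells, was at 0.0825 to 0.38 CPM in all 8 libraries, and its partner Rpl39 fell in CD8 T cells (−1.04, SE 0.13) and gave 0.19 (SE 0.15) in ILC2s. Rpl3l and Rpl10l were in neither table. The pseudogenes Rps3a2 and Rpl6l changed nearly as their parents did in CD8 T cells, at −0.58 beside −0.59 for Rps3a1 and −0.84 beside −0.59 for Rpl6, and reads of parent and copy may have been exchanged between them.

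**Figure D4:**
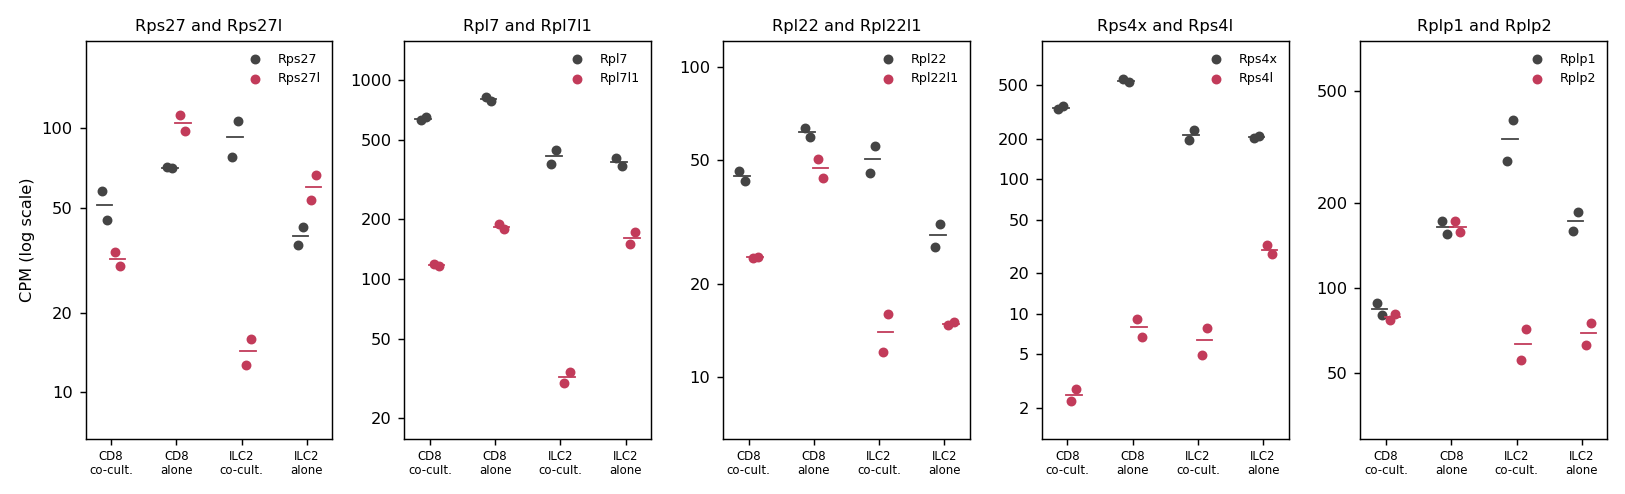
CPM (log scale) of both genes of 4 paralog pairs and of the stalk pair Rplp1 and Rplp2 in each library, with the mean of each group as a line. Rps27l lies above Rps27 in all libraries labelled alone and below it in all co-cultured ones, and Rplp1 lies above Rplp2 in all ILC2 libraries.

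The counts of the other translation gene lists below stand beside these shares of all genes, first lower and then higher. They were 30.7% and 30.2% in CD8 T cells, 34.4% and 31.8% in ILC2s and 32.6% and 21.0% in the interaction. Scaled to own markers, they were 37.7% and 23.3%, 79.1% and 3.17%, and 74.2% and 3.23%. Ribosome genes outside the symbol rule behaved like the members in CD8 T cells. All 6 listed ones fell there with a median of −0.85, led by Rpl36al (−1.54, SE 0.078) and Rpl37rt (−0.98, SE 0.20), and in ILC2s 3 rose and 2 fell (none and 5 when scaled to ILC2 markers), with Rps27rt (1.63, SE 0.26) and Fau (0.94, SE 0.13), which encodes the small subunit protein Rps30 fused to a ubiquitin-like peptide, at the top. Rack1, a signalling scaffold on the small subunit, fell in both (−0.98 in CD8 T cells and −0.54 in ILC2s). Mitochondrial ribosomal protein genes moved otherwise in ILC2s: 59 of 78 fell and 1 rose (median −0.85; all 78 fell when scaled to ILC2 markers), while in CD8 T cells 76 fell (median −0.83). In the interaction test 11 of them were above 0, 23 below and 44 did not pass (median −0.19), beside 21.0% of all genes above and 32.6% below. Scaled to own markers none was above, also at an unadjusted p, and 77 were below (median −1.38), beside 74.2% of all genes below.

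Elongation factors and other TOP mRNAs did not follow the members throughout. In CD8 T cells 10 of 16 fell and 3 rose (median −0.42). Eef1d, an exchange factor of the elongation complex, fell by 1.33 (SE 0.086) and Npm1, a nucleolar chaperone, by 1.02 (SE 0.091), on the log2 scale. Both main elongation factors rose, although only 1 gene of the list did when scaled to CD8 T cell markers. Eef2, the translocase, had 2015 and 2250 CPM in co-cultured CD8 T cells against 1388 and 1458 CPM in those alone (0.50, SE 0.076), and Eef1a1, which delivers aminoacyl-tRNA, had 5938 and 5994 CPM against 4619 and 4828 CPM (0.26, SE 0.068). In ILC2s 7 rose and 5 fell, beside 31.8% and 34.4% of all genes, with Eef2 (1.68, SE 0.11) and Eef1a1 (1.41, SE 0.10) at the top. Scaled to ILC2 markers, none rose and 14 fell, beside 3.17% and 79.1% of all genes.

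Host genes of small nucleolar RNAs, whose spliced RNAs also start with a TOP run, all 7 fell in CD8 T cells (median −0.91), with Snhg6 (−1.51, SE 0.18) and Snhg8 (−1.14, SE 0.26) lowest. In ILC2s 6 of 7 rose (median 1.26), and scaled to ILC2 markers 1 rose and 1 fell (median −0.24). Zfas1 had 23.4 and 31.2 CPM in co-cultured ILC2s against 8.66 and 8.21 CPM in those alone (1.905, SE 0.16, edgeR adjusted p = 9.1e-07), and Snhg12 gave 1.92 (SE 0.29). All 7 were above 0 in the interaction test, and 5 when scaled to own markers (median 0.77).

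Dedicated chaperones of single ribosomal proteins fell in 7 of 8 cases in CD8 T cells (median −0.87), led by Tsr2 (−1.24, SE 0.12), which carries Rps26, and Ltv1 (−1.20, SE 0.082), an assembly factor of the small subunit head. In ILC2s 5 fell and 3 rose (median −1.07), and all 8 fell when scaled to ILC2 markers, as did 79.1% of all genes. Grwd1, the human homologue of which escorts RPL3, had 4.60 and 4.83 CPM in co-cultured ILC2s against 50.5 and 53.7 CPM in those alone (−3.25, SE 0.15, edgeR adjusted p = 5.6e-09). Heatr3, which in human cells imports RPL5, fell by 2.05 (SE 0.14) on the log2 scale. Of the clients named, Rpl5 fell in ILC2s (−0.64), Rpl3 rose (0.85, SE 0.11) and Rps26 gave −0.07 (SE 0.14, edgeR adjusted p = 0.66).

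Genes of mTORC1, LARP1 and their targets were mixed. In CD8 T cells 6 of 16 fell and 6 rose (median 0.077), shares near the 30.7% and 30.2% of all genes. Eif4ebp1, the translation repressor that mTORC1 inactivates, had 109 and 109 CPM in co-cultured CD8 T cells against 249.7 and 231 CPM in those alone (−1.22, SE 0.071), and Tsc2, an mTORC1 inhibitor, had 43.1 and 50.9 CPM against 21.7 and 24.7 CPM (0.94, SE 0.11). In ILC2s 8 rose and 4 fell (median 0.40, beside 31.8% and 34.4% of all genes; none and 14 scaled to ILC2 markers), with Tbc1d7, a partner of the TSC proteins, at −1.63 (SE 0.15) and Rps6ka1, a ribosomal S6 kinase of the RSK family, at 1.39 (SE 0.12). Of 11 genes for ribosome collision, rescue and recycling, 5 fell and 1 rose in CD8 T cells (median −0.19, beside the same shares of all genes), among them Edf1 (−0.97, SE 0.074), a sensor of collided ribosomes, and Pelo (−0.63, SE 0.14), a rescue factor. In ILC2s 3 fell and 4 rose, near the shares of all genes (median 0.023; 11 and none scaled to ILC2 markers), with Tcf25 (1.20, SE 0.11) and Ascc2 (−1.10, SE 0.13), both of ribosome quality control, furthest from 0.

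**Figure D5:**
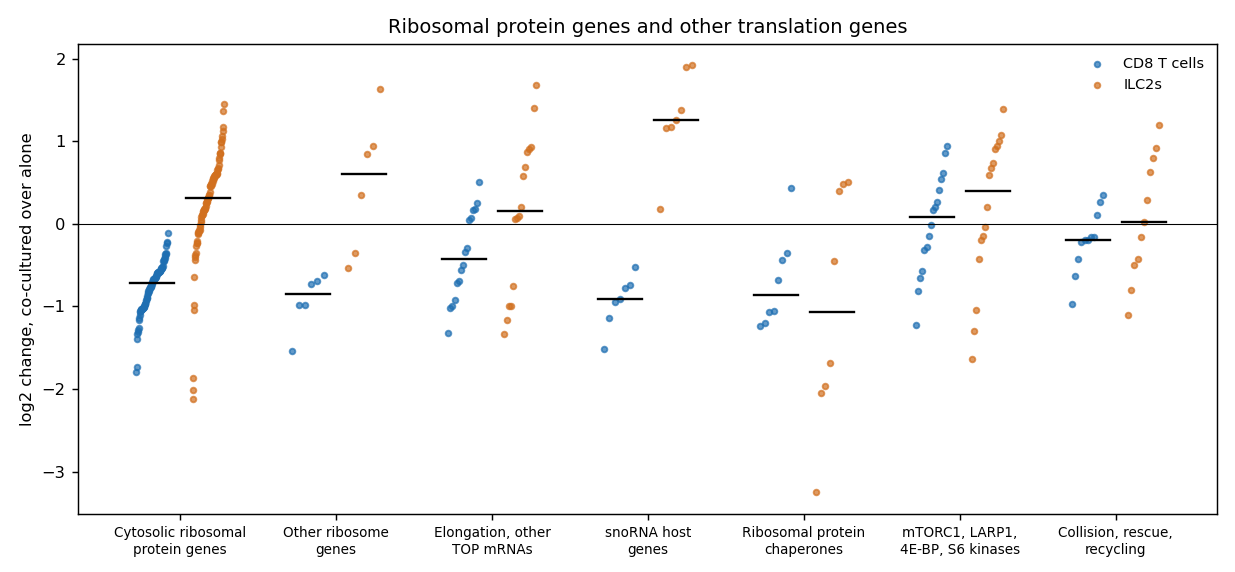
Log2 change (co-cultured over alone, y axis, TMM scaling) of each gene in 7 groups of translation genes, in CD8 T cells (blue) and ILC2s (orange), with the median as a black line. The cytosolic ribosomal protein genes have medians of −0.72 in CD8 T cells and 0.31 in ILC2s, the ILC2 one turning to −1.19 when scaled to ILC2 markers.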

How the data were processed

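Per the labels' protocols, RNA was extracted with Trizol and 8 bulk libraries were prepared by the SMART-Seq v4 kit for low input. The authors deposited whole-number read counts per gene symbol in 2 tables, the CD8 T cell one of 17642 genes and the ILC2 one of 18389. Per the submitters' processing notes, the build was mm10 and the tools were StringTie 2.1.3b, SAMtools 1.9, HISAT2 2.1.0 and Trimmomatic 0.38. The sources used here do not give their roles, the annotation, the strand setting, the treatment of reads shared between copies or any count filter, so values of members with near-identical copies are uncertain.

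Each table was tested whole in R 4.3.3 by the quasi-likelihood F test of edgeR 4.0.16 (TMM factors, genes kept by filterByExpr, Benjamini-Hochberg threshold 0.05), and the interaction over 15532 genes of both tables with TMM over all 8 libraries, so that it is not the exact difference of the separate changes. All 87 members were tested in CD8 T cells and 85 in ILC2s, where Rpl32l and Rpl39l fell to the low-count filter. SE is the log2 change divided by the square root of F. The residual degrees of freedom were 2 per cell type and 4 in the interaction, and the prior ones 10.4, 9.23 and 11.5. The fitting code was tested on simulated data. Within each group the libraries differed beyond sampling noise (12.5 to 25.9 chi-square per gene) and had Pearson's r of log2 CPM across genes of 0.986 to 0.994.

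DESeq2 1.42.0, limma 3.58.1 (voom), other scalings and filters, and leaving out each library were alternatives. Scaling to markers used the geometric mean CPM of a cell type's marker list and, like scaling to the members' total, was chosen after seeing the data. All 87 symbols matched RefSeq (GRCm38.p6) and GENCODE M21, from which lengths came. Named were the paralogs with their partners, per cell type the 6 lowest and 6 highest changes at a mean of at least 16 CPM, the members not past the threshold (all if 12 or fewer, else the 3 most abundant), the 3 highest levels per coding kb of each subunit, the 6 lowest interaction p-values, the 2 largest changes of each other list and members with well-known roles. Outside this rule, Rpl31, Rpl8, Rps3a2, Rpl6l, Rps26, Rack1, the cell type markers Zap70, Ctla4 and (in ILC2s) Lum, Eef2 and Eef1a1 in CD8 T cells were named after their values were seen. Values of some members that the rule names are not reported here, and those members count only in the totals. The members and lists were chosen with earlier results of these data known.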

Additional observations from a re-analysis of the deposited data

Results flagged for a closer look

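The change with co-culture differed between the cell types by the interaction test (edgeR quasi-likelihood, adjusted p under 0.05) for 75 members with a more positive change in ILC2s and for 1, Rpl7l1, with a more negative one. Of all genes, 21.0% and 32.6% did so. Scaled to each cell type's own markers, it was 3 and 34 members, beside 3.23% and 74.2% of all genes. Among the members with the lowest p, the change in ILC2s minus that in CD8 T cells was 2.05 for Rplp1, 1.83 for Rps27, 1.42 for Rpl22, 1.36 for Rpl10 and −1.56 for Rpl7l1, on the log2 scale.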

How the results depend on the processing

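Scaling was the choice that moved the results most. In ILC2s, 15 members fell with library totals only and 17 with all 8 libraries in 1 fit, against 9. Of all genes, 41.1%, 40.0% and 34.4% fell, in the same order. Scaled to each cell type's own markers, a choice made after seeing the data, 81 fell and 0 rose in ILC2s, beside 79.1% and 3.17% of all genes. In the interaction 34 were then below and 3 above 0, beside 74.2% and 3.23% of all genes, with the median turned to −0.23. With this scaling no member's fall in CD8 T cells was turned, and the shift of the median of all genes was −0.16 there. Scaled to the summed count of the members, also chosen after seeing the data, 39 fell and 5 rose in CD8 T cells. Of all genes, 11.7% and 57.1% did so. In ILC2s, 23 fell and 8 rose, beside 47.5% and 17.0% of all genes. The median of all genes was then 0.55 in CD8 T cells and −0.49 in ILC2s. The difference in the ribosomal protein share of counts in CD8 T cells was −0.942 points without the 10 most abundant other genes and −0.95 points over TMM effective library sizes, and in ILC2s 0.504 points over TMM sizes. Leaving out 1 library at a time gave 79 to 82 members lower and 0 higher in CD8 T cells, 7 to 11 lower and 31 to 47 higher in ILC2s, 71 to 75 above and 1 to 2 below 0 in the interaction (2 without co-cultured ILC2 replicate 2, where Rps4l joined Rpl7l1), and differences in share of −0.873 to −0.754 points in CD8 T cells and 0.132 to 0.432 points in ILC2s, the lowest without co-cultured ILC2 replicate 2. Over the other alternatives planned, DESeq2 and limma-voom among them, 80 to 82 members fell in CD8 T cells. Deviations of same-numbered libraries were nearly uncorrelated over genes (−0.015 within CD8 T cells, 0.053 within ILC2s and −0.0021 between the co-cultured groups). These values cannot show whether the samples were paired. With the replicate block, 82 members fell in CD8 T cells, beside 30.8% of all genes. In ILC2s 11 fell and 42 rose (34.4% and 31.6% of all genes). In the interaction 75 were above and 1 below 0 (21.3% and 33.2% of all genes). Leaving out a library leaves 1 sample in its group, which is assumed to vary like the others. With 2 libraries a group, the spread of each gene rests largely on that of other genes.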
